A study of Sus scrofa with 4 samples.

Results

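The 10 genes CENPF, TOP2A, TPX2, HMMR, UBE2C, CCNB1, CDK1, BIRC5, ASPM and CDC20 are transcripts that dividing cells make as they enter and pass through mitosis. They were chosen by name, and every feature that carried one of these names in the pig annotation (19 features, 9 of them extensions of a gene's 3′ end) was summed, which gave 10 genes of the 30282 gene identifiers in the count matrices. All 10 were detected in every library, and they were described here in porcine pancreatic ductal organoids (PPDO) and in the cell classes of primary porcine pancreas.

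Mitotic transcripts accumulate in G2 and M phase, after the cell has copied its DNA, and are degraded or shut off after division. Cyclin B with CDK1 drives entry into mitosis, spindle proteins then align the chromosomes, and the anaphase promoting complex, switched on by CDC20, destroys cyclin B so that the chromosomes can part. Resting exocrine and endocrine cells of the pancreas rarely divide, whereas organoids are expanded in medium rich in growth factors, and the question was therefore how much of this programme each culture and each tissue class carried.

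Single-cell RNA was counted as unique molecular identifiers (UMIs, 1 per captured transcript end) with the 10x Genomics 3′ assay in 4 pig libraries, 2 of PPDO and 2 of primary pancreas. The study calls the donors of the PPDO lines a late postnatal and an adult pig of German landrace background, although the ages its methods give for the organoids both fall in its late postnatal range; the lines differed in passage number and were grown in medium with WNT3a, R-spondin and noggin, FGF10, EGF, gastrin, prostaglandin E2, nicotinamide, N-acetylcysteine, the TGF-beta receptor inhibitor A83-01 and the ROCK inhibitor Y-27632. Which PPDO library came from which pig is not given in the labels. The primary pancreata came from late postnatal pigs of the same background, 1 wild type and 1 carrying INS-eGFP, a reporter that the porcine insulin promoter switches on in beta cells, and were processed on different days. Ducts were picked by hand from the first pancreas, and cells sorted by Dolichos biflorus agglutinin binding or by eGFP were pooled with unselected live cells from the second, so the class shares of these libraries reflect that selection. Each library was from a separate pig, n was 2 in each group, and culture, passage and medium coincided with the PPDO group and cannot be told apart from it.

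After filtering, 8885 and 7337 PPDO cells and 5671 and 4261 primary cells remained, with medians of 34176, 34459, 10169 and 23651 UMIs per cell, and any pair of libraries shared 10 to 23 cell barcodes. The ductal label of the PPDO was checked against its markers: KRT7, a duct keratin, was at 389 and 384 counts per 1000000 UMIs (CPM) in PPDO and at 333 and 132 in primary pancreas 1 and 2, but CFTR, the chloride channel of duct cells, was at 1.04 and 0.636 CPM in PPDO against 552 and 173 in primary pancreas, and the 9 ductal markers summed to 1040 and 921 CPM against 17341 and 7389. Of the markers of the immune cells described further on, 9 of 10 T and NK cell markers and 8 of 12 myeloid markers were under 1 CPM in both PPDO libraries, and C1QC, a macrophage complement gene, was at 0. The T and NK cell markers summed to 11.9 and 10.9 CPM in PPDO against 146 and 60.8 CPM in primary pancreas. The myeloid markers summed to 39.2 and 39.3 CPM against 394 and 81.5 CPM, and the 4 above 1 CPM in PPDO were CD68, SPI1, CD14 and AIF1. Of 7 B cell markers 5 were under 1 CPM, but CD79A was at 1795 and 2002 CPM. The 7 Schwann cell markers summed to 3645 and 3507 CPM in PPDO, above the ductal markers and above the 1376 and 1216 CPM of primary pancreas, and ERBB3 made up 3636 and 3499 CPM of this, while 4 of the 7 were under 1 CPM. The part of these genes in the results was not tested.

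On the pig assembly Sscrofa11.1, RefSeq places HMMR (chr16:60290684-60332411) and CCNB1 (chr16:47338239-47348385) on chromosome 16, TPX2 (chr17:35431271-35484814) and UBE2C (chr17:48018403-48021542) on chromosome 17, and TOP2A (chr12:22001300-22028452) and BIRC5 (chr12:3747276-3755214) on chromosome 12. The other 4 lie on chromosomes of their own, CENPF at chr9:128948386-129012241, CDK1 at chr14:64233945-64255290, ASPM at chr10:19971516-20039680 and CDC20 at chr6:167886266-167890587, and all 10 are annotated as protein coding.

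All 10 mitosis genes were higher in both PPDO libraries than in either primary pancreas library, whether all primary cells or only the primary cells with a ductal marker profile (ductal-like) were summed. The share of all genes with both PPDO libraries above both primary libraries was not counted, so this alone does not set the 10 apart. The summed level of the 10 genes was 142 and 216 CPM in PPDO 1 and PPDO 2, 67.8 and 19.4 CPM over all cells of primary pancreas 1 and 2, and 46.2 and 17.0 CPM over their ductal-like cells. PPDO 2 was above PPDO 1 for each gene, and within primary pancreas the first library was above the second for each gene over all cells. These levels describe the cells kept. Filtering removed much of the PPDO signal of CENPF, TOP2A, CDK1, BIRC5, HMMR, TPX2, ASPM, CCNB1 and CDC20. In PPDO 1 and 2, CENPF had 17692 and 16812 UMIs over all barcodes without its extension, and 7043 and 8851 with it after filtering. For TOP2A these were 16729 and 17748, and 6667 and 9598. For CDK1 they were 7578 and 7733, and 3477 and 4543. For BIRC5, which has no extension, they were 5296 and 5359, and 3345 and 3653. All UMIs went from 366263520 and 316018482 to 300990276 and 262372786. PPDO 1 lost more of CENPF, TOP2A, CDK1 and BIRC5 than PPDO 2. The part of this in the gap between PPDO libraries was not tested.

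**Figure D1:**
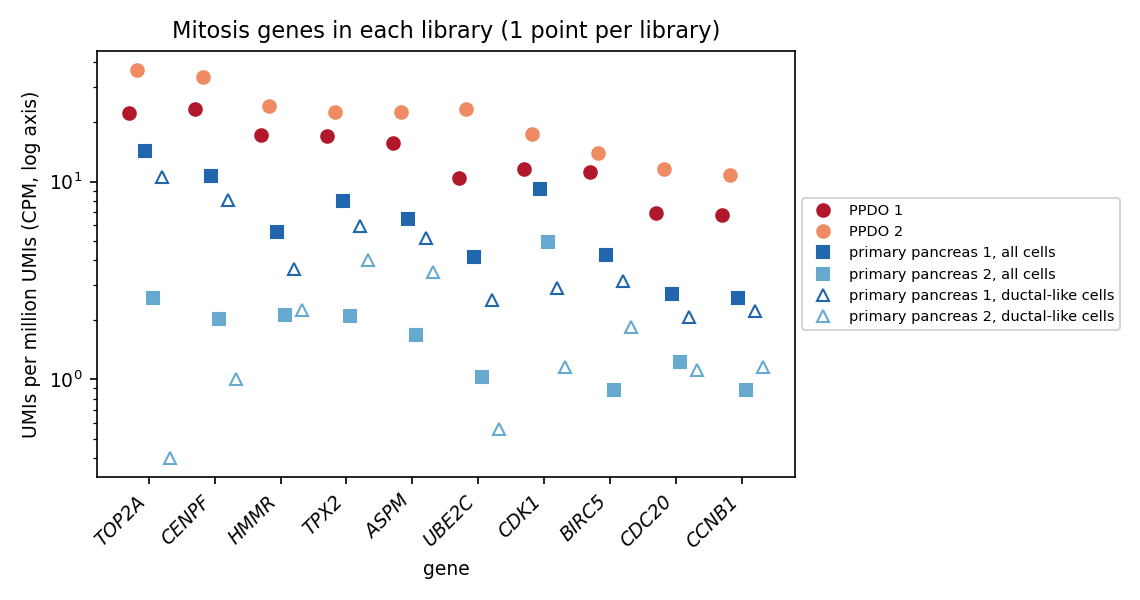
CPM of each mitosis gene (log axis) in each library. Circles are the 2 PPDO libraries, squares all cells of the 2 primary pancreas libraries and open triangles their ductal-like cells, with 1 point per library. For each gene both PPDO points lie above every primary pancreas point; the ductal-like cells of primary pancreas 2 reach down to 0.400 CPM for TOP2A.

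CCNB1 encodes cyclin B1, and CDK1 the kinase that it activates at the start of mitosis. CCNB1 was at 6.75 and 10.8 CPM in PPDO and at 2.20 and 1.16 CPM in ductal-like cells of primary pancreas 1 and 2, a fitted log2 fold change of 2.79 ± 0.51 (SE, edgeR quasi-likelihood test with Benjamini-Hochberg adjustment, adjusted p = 0.0135). CDK1 was at 11.6 and 17.3 CPM in PPDO and at 2.90 and 1.16 CPM in the latter (3.21 ± 0.59 SE, edgeR adjusted p = 0.0135). Neither gene's groups overlapped, but the share of all genes for which this held was not counted.

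The spindle group held 3 genes. TPX2 nucleates microtubules and activates Aurora A, HMMR (RHAMM) positions the spindle, and ASPM gathers microtubule ends at the spindle poles. HMMR was at 17.2 and 24.0 CPM in PPDO and at 3.62 and 2.24 CPM in ductal-like cells, and rose by 3.23 ± 0.41 on the log2 scale (SE, adjusted p = 0.00484, edgeR). TPX2 was at 16.9 and 22.5 CPM against 5.98 and 4.0 CPM (2.40 ± 0.36 SE, edgeR adjusted p = 0.00764). ASPM was at 15.6 and 22.5 CPM against 5.17 and 3.48 CPM (2.56 ± 0.38 SE, edgeR adjusted p = 0.00745). With BIRC5, these 3 had the smallest standard errors of the 10.

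CDC20 and UBE2C work with the anaphase promoting complex, CDC20 as its activator and UBE2C as the enzyme that delivers ubiquitin. CDC20 was at 6.91 and 11.6 CPM in PPDO and at 2.06 and 1.12 CPM in ductal-like cells (2.94 ± 0.52 SE, edgeR adjusted p = 0.0118). UBE2C was at 10.4 and 23.4 CPM against 2.53 and 0.560 CPM (3.8 ± 0.89 SE, edgeR adjusted p = 0.0268). UBE2C had the largest fitted fold of the 10 and the widest ratio between the 2 PPDO libraries.

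BIRC5 (survivin) belongs to the passenger complex that corrects chromosome attachment, CENPF sits at the kinetochore, and TOP2A untangles the DNA of sister chromosomes. BIRC5 was at 11 and 13.9 CPM in PPDO and at 3.15 and 1.84 CPM in ductal-like cells (2.73 ± 0.41 SE, edgeR adjusted p = 0.00771). CENPF was at 23.4 and 33.7 CPM against 8.05 and 1.0 CPM (3.0 ± 1.01 SE, edgeR adjusted p = 0.0704). TOP2A was at 22.2 and 36.6 CPM against 10.5 and 0.400 CPM (2.76 ± 1.35 SE, edgeR adjusted p = 0.162). CENPF and TOP2A were the most abundant of the 10 in PPDO and did not pass the test, and for both the ductal-like cells of primary pancreas 1 lay far above those of primary pancreas 2, where TOP2A rested on 10 UMIs.

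In all, 8 of the 10 passed an adjusted p of 0.05 against ductal-like cells, all higher in PPDO, where 22.8% of the 23510 genes tested were called higher and 43.7% were called in either direction. The median log2 fold change was 2.87 over the 10 genes and 0.0086 over all genes tested. With library totals in place of TMM factors (scaling factors that assume most genes do not change), the median of all genes moved by -0.447 and the calls over all genes split into 3291 higher and 6928 lower, against 5371 and 4902, while 8 mitosis genes again passed the threshold. Without PPDO 2 the count fell to 4 (HMMR, TPX2, ASPM and BIRC5), and without either primary pancreas library it was 10. The ductal-like cells of the 2 primary libraries came from different clusters, 0 and 24 in the second library and, but for 1 cell of cluster 0, clusters 1, 4 and 8 in the first.

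Against all primary cells, 3 of the 10 passed, HMMR, CCNB1 and CDC20, where 11.9% of 24753 genes were called higher and 25.6% in either direction. Their log2 fold changes were 2.82 ± 0.46, 2.75 ± 0.57 and 2.61 ± 0.48 (SE, edgeR adjusted p = 0.0281, 0.0410 and 0.0337). The other 7 had adjusted p-values from 0.0522 (ASPM) to 0.109 (TOP2A), and CDK1 had the smallest fitted difference, 1.39 ± 0.35 (SE, edgeR adjusted p = 0.0577), with 9.13 and 4.95 CPM in primary pancreas 1 and 2. The median log2 fold change was 2.64 over the 10 genes and -0.12 over all genes tested. Both comparisons used the same PPDO libraries. By edgeR none of the 10 passed without PPDO 1 or without PPDO 2 (9 and 3 had an unadjusted p under 0.05), and with library totals alone the count was also 0 (7 unadjusted), while DESeq2 called 10. With library totals the median of all genes moved by -0.313 and the calls split into 1027 higher and 3339 lower, against 2952 and 3397. DESeq2 also called more genes in all than edgeR did, and its 10 are to be read against that. The unadjusted counts are not set against all genes here.

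Ordered by their mean level in PPDO, the genes ran TOP2A, CENPF, HMMR, TPX2, ASPM, UBE2C, CDK1, BIRC5, CDC20 and CCNB1. The assay counts transcript ends, so these levels are molecules and need no correction for gene length, but they depend on how well each 3′ end is captured and annotated. Every neighbouring pair in this order overlapped across the 2 PPDO libraries, but PPDO 2 was above PPDO 1 for each gene. Within each library CENPF was above HMMR, HMMR above TPX2, CDK1 above BIRC5, BIRC5 above CDC20 and CDC20 above CCNB1. The other neighbours, TOP2A with CENPF, TPX2 with ASPM, ASPM with UBE2C and UBE2C with CDK1, changed places between the libraries. ASPM had the largest share of its UMIs in the extension feature in every library, 33.0% and 23.2% in PPDO and 60.5% and 79.3% in ductal-like cells of primary pancreas 1 and 2. UBE2C followed in PPDO with 13.2% and 8.44%, and was at 20.2% and 71.4% in ductal-like cells. CDC20 was at 9.38% and 4.68% in PPDO and at 27.0% and 32.1% in ductal-like cells. In ductal-like cells of primary pancreas 2, 40% of the 10 TOP2A UMIs lay in the extension. With extensions left out, the count of genes past the threshold against ductal-like cells stayed at 8.

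The difference was next followed to single cells. Each cell was thinned to 3000 UMIs, so that deep and shallow cells could be compared, and a cell with a UMI of at least 3 of the 10 genes was counted as a cell with the mitosis programme. In PPDO 1 these were 281 of 8824 cells (3.18%, exact 95% interval 2.83 to 3.57) and in PPDO 2 they were 341 of 7327 (4.65%, 4.18 to 5.16). In ductal-like cells they were 6 of 2046 (0.293%, 0.108 to 0.637) and 1 of 1171 (0.0854%, 0.00216 to 0.475). The intervals are Clopper-Pearson and cover counting error only. The shares are of cells that passed the filter, which removed much of the mitosis gene signal of PPDO, as given above. In primary pancreas 1 and 2 CENPF went from 857 and 426 UMIs without its extension to 808 and 239 with it.

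The mean share was 3.92% ± 1.04 in PPDO and 0.189% ± 0.147 in ductal-like cells (SD, n = 2 and 2), a ratio of 20.7, and the groups did not overlap. The ratio rests on 6 and 1 ductal-like cells: it was 13.4 without primary pancreas 2 and 45.9 without primary pancreas 1. The exact two-sided permutation test gave p = 0.333, the smallest value that 2 against 2 libraries allow. Over all primary cells the share was 0.571% and 0.235%, for a ratio of 9.73 with the same permutation p. That ratio was 16.7 without primary pancreas 1 and 6.87 without primary pancreas 2. Without thinning, when the deeper PPDO cells count for more, the shares were 14.0% and 16.8% in PPDO and 0.834% and 0.256% in ductal-like cells. Thinning left out 61 and 10 PPDO cells and 113 and 0 ductal-like cells as too shallow.

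**Figure D2:**
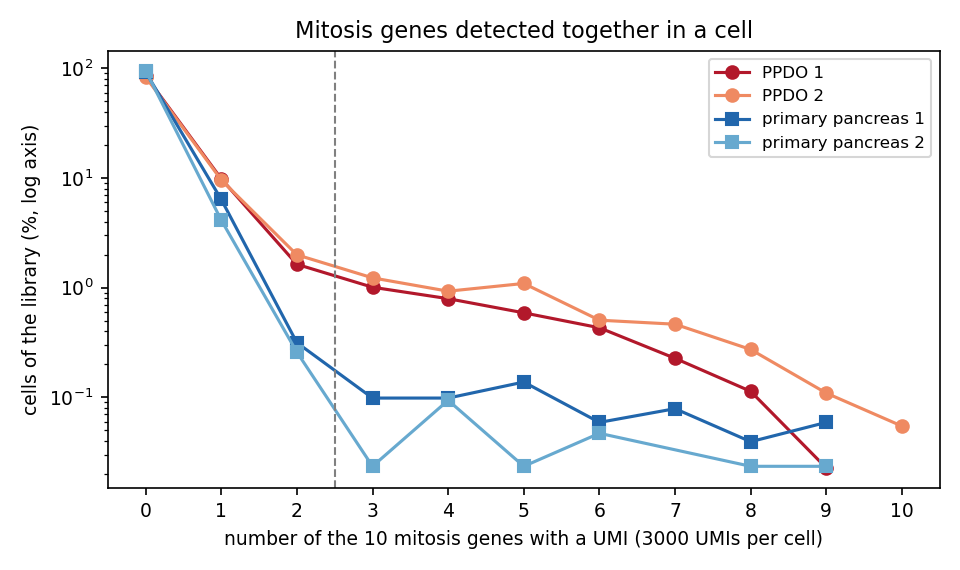
Share of each library's cells (log axis) by the number of mitosis genes, of 10, with a UMI after thinning to 3000 UMIs. Lines join the values of 1 library, counts of 0 are not drawn, and the dashed line marks the cut at 3 genes; the 2 PPDO lines run above both primary pancreas lines from 1 to 8 genes, and only PPDO 2 had cells with all 10.

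Most PPDO cells had none of the 10 genes at this depth, 85.3% in PPDO 1 and 83.7% in PPDO 2, and a further 9.84% and 9.61% had only 1. Close to the cut, 144 and 146 PPDO cells had 2 genes and 89 and 90 had exactly 3. At the far end, 4 cells of PPDO 2 and none of PPDO 1 had all 10. The cells with 3 or more genes carried 62.9% and 72.7% of all UMIs of the 10 genes in PPDO 1 and PPDO 2.

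Within that group the summed level was 2372 and 2692 CPM in the PPDO libraries, and it was 54.7 and 62.8 CPM in the remaining PPDO cells. In the corresponding primary cells, 29 and 10 in number, it was 5047 and 4318 CPM. The remaining primary cells were at 24.5 and 12.5 CPM. Cells with none of the 10 genes after thinning were at 33.1 and 33.4 CPM in PPDO and at 14.6 and 8.50 CPM in primary pancreas, in their full counts. These counts are not corrected for free RNA, and its part in the levels outside the group was not tested. The PPDO cells of this group also held more RNA, with medians of 40749 and 45635 UMIs against 34109 and 34091 in the rest, and a doublet caller marked 1.42% and 2.35% of them against 1.31% and 1.17% of the rest.

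The members differed in how much of their signal lay in these cells. CCNB1 was the most concentrated in PPDO 1 with 74.9% of its UMIs there, and CENPF in PPDO 2 with 80.5%. BIRC5 was the least concentrated in both, with 42.2% and 50.3%, followed by CDK1 with 48.6% and 63.6%. Since the group was defined with these genes, the values describe it and test nothing.

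Across PPDO cells the levels of the 10 genes varied together. Pearson's r of the log normalised counts ranged over the 45 pairs from 0.331 to 0.760 with a median of 0.594 in the 8885 cells of PPDO 1, and from 0.468 to 0.871 with a median of 0.713 in the 7337 cells of PPDO 2. The weakest pair was CDK1 with CDC20 in PPDO 1 and CDK1 with BIRC5 in PPDO 2, and the strongest was CENPF with TOP2A in PPDO 1 and TPX2 with HMMR in PPDO 2. Cells of a library share its depth and preparation, and these correlations are descriptive.

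Next, 7489 other genes with a symbol of their own and 10 CPM or more in both PPDO libraries were compared with the summed mitosis genes. The 12861 gene identifiers without a symbol and the 1331 that share one were not compared. The 10 genes with the most similar cell-to-cell pattern were DIAPH3, PCLAF, DLGAP5, HMGB2, CENPE, STMN1, KIF11, SPC24, SMC2 and BUB1B. DIAPH3, a formin that builds actin filaments, led with r = 0.714 and 0.786 in PPDO 1 and 2. PCLAF, which binds the replication clamp PCNA, followed with 0.675 and 0.740, and BUB1B, a spindle checkpoint kinase, closed the list with 0.622 and 0.739. The measure was the lower r of the 2 libraries. DIAPH3, PCLAF and STMN1 were in none of the gene lists drawn up for the analysis.

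The PPDO cells were then clustered without the mitosis genes. Other genes of the cell cycle lists were also left out where they could be matched by symbol. Most cells with 3 or more mitosis genes lay in 1 of 8 clusters. Genes that vary with the mitosis genes but are in none of the lists, such as DIAPH3, PCLAF and STMN1, were not removed, so the clustering was not independent of the programme. Cluster 4, led by CENPF, TOP2A, UBE2C and TPX2 once all genes were ranked, made up 5.99% and 6.87% of the PPDO libraries and held 91.1% and 88.6% of these cells. Its share of cells with the programme was 51.6% and 60.2%, and its summed level was 1969 and 2271 CPM.

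Cluster 6, led by DTL, ZNF367, KNTC1 and UHRF1, of which DTL and UHRF1 act in DNA replication and its control, came next at 5.21% and 6.21% of cells and 222 and 246 CPM. In this cluster 88.3% and 92.8% of cells had 3 or more of 29 DNA replication genes at 3000 UMIs, against 55.2% and 55.8% in cluster 4. The clusters were built from these same cells, so the differences between them are a description.

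The remaining 6 clusters had the programme in 0 to 1.09% of their cells. The highest of them was cluster 7, led by SPP1, KRT4, WFDC2 and CFD, with 0.974% and 1.09%. Cluster 5, led by SPRP, SLPI, DMKN and KRTDAP, which include genes of keratinising epithelium, had none among 330 and 434 cells and the lowest summed level, 19.9 and 20.4 CPM. The exact 95% interval of these counts of 0 reached up to 1.11% and 0.846%.

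**Figure D3:**
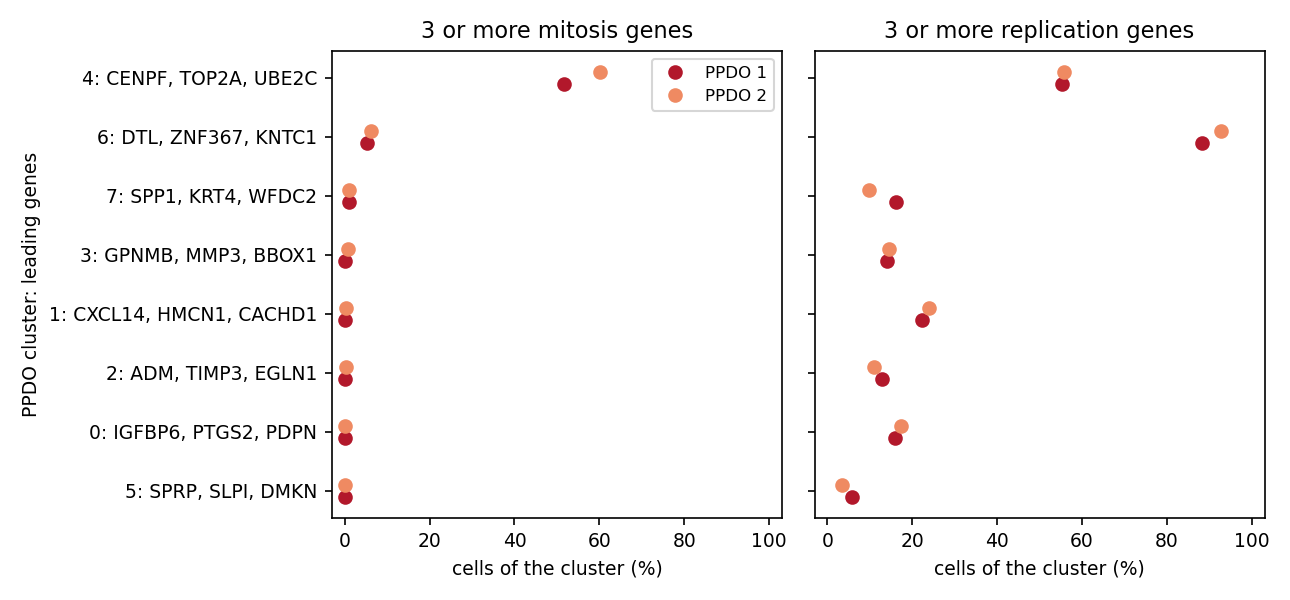
Percent of cells with 3 or more mitosis genes (left) and with 3 or more of 29 DNA replication genes (right) in each PPDO cluster, 1 point per library, at 3000 UMIs per cell. Cluster 4 reaches 51.6% and 60.2% on the left, and cluster 6 reaches 88.3% and 92.8% on the right.

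Taking the whole libraries, 20.9% and 21.9% of PPDO cells had 3 or more replication genes, against 8.94% and 11.6% of ductal-like cells. Of the PPDO cells with the mitosis programme, 71.2% and 66.9% also had 3 or more replication genes, and of the rest 19.3% and 19.7% did.

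Primary pancreas held few cells with the programme, 29 in the first library and 10 in the second. Among the named classes the share was highest in the immune classes. In lymphoid-like cells it was 10 of 237 (4.22%, exact 95% interval 2.04 to 7.62) in primary pancreas 1 and 1 of 73 (1.37%, 0.0347 to 7.40) in primary pancreas 2. In myeloid-like cells it was 7 of 392 (1.79%, 0.721 to 3.64) and 4 of 65 (6.15%, 1.70 to 15). The libraries differed in opposite directions for the 2 classes, each within overlapping intervals.

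Lymphoid-like and myeloid-like cells gave 34.5% and 24.1% of the 29 cells in primary pancreas 1 while they were 4.66% and 7.71% of its cells with at least 3000 UMIs, the denominator of all class shares in this paragraph. In primary pancreas 2 they gave 1 and 4 of the 10 cells and were 1.71% and 1.53% of cells. Ductal-like cells gave 6 of 29 and 1 of 10 at 40.3% and 27.5% of the cells. Endocrine-like cells gave 0 of 29 and 4 of 10, and were 51.7% of cells in the second library, where their share with the programme was 4 of 2203 (0.182%, 0.0495 to 0.464). Without thinning it was 13 of 2203 (0.590%). The 14 endocrine markers summed to 394407 CPM in that library, which leaves fewer of the 3000 UMIs for other genes. The part of this in the endocrine-like share was not tested.

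Endothelial-like cells had the programme in 3 of 1029 cells (0.292%) and 0 of 264, and stellate-like cells in 1 of 697 (0.143%) and 0 of 48. No acinar-like cell had it, 0 of 250 and 0 of 56, which allows shares of up to 1.20% and 5.36% (3 counts of the total; the exact 95% intervals reached 1.46% and 6.38%). Neither did any of 320 Schwann-like cells in primary pancreas 1 (up to 0.938% and 1.15% by the same limits). Clusters without a name held the other 2 cells, among 38 in the first library that were deep enough. Both lay in cluster 20 (2 of 33 cells), which passed 7 of 9 ductal markers, was led by TCN1 and TM4SF20 and was left unnamed for its shallow cells, with a median of 1384 UMIs; they are not in the ductal-like counts. No class of a primary library had more than 10 such cells, and no test between classes was made, since cells of 1 library are not replicates.

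**Figure D4:**
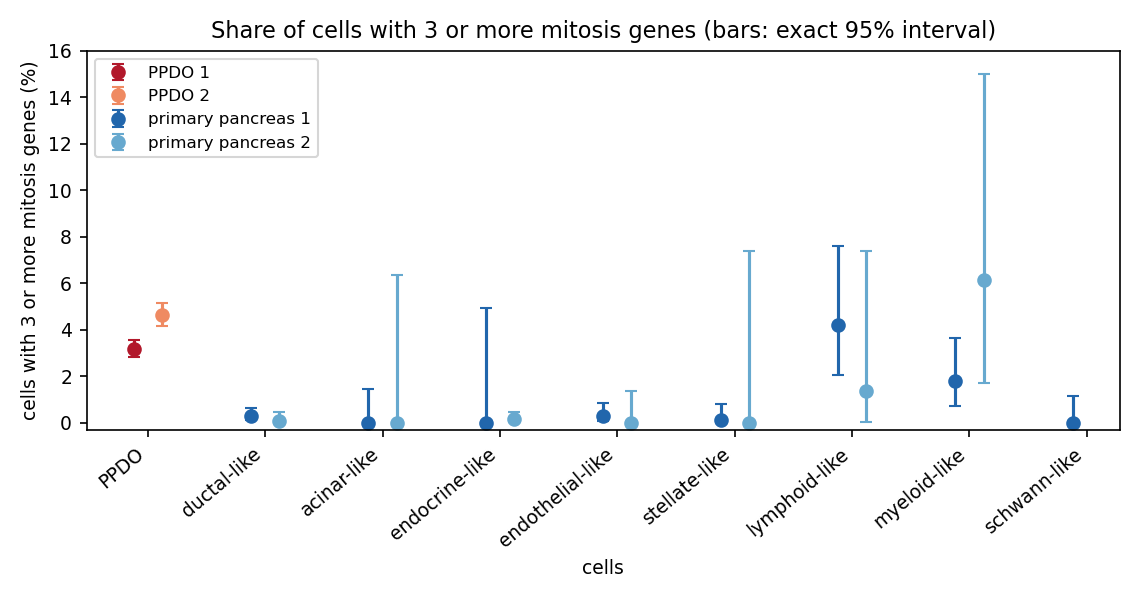
Percent of cells with 3 or more mitosis genes at 3000 UMIs per cell in PPDO and in each named primary pancreas class, 1 point per library with its exact 95% interval, which covers counting error only. PPDO lie at 3.18% and 4.65%, lymphoid-like cells at 4.22% and 1.37%, myeloid-like cells at 1.79% and 6.15%, and every other class at or below 0.293%.

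The summed levels were also highest in the immune classes among the named classes, but their order against PPDO differed from that of the shares. Lymphoid-like cells were at 662 and 188 CPM and myeloid-like cells at 204 and 413 CPM, and all 4 values exceeded the 142 CPM of PPDO 1, while 662 and 413 also exceeded the 216 CPM of PPDO 2. The shares of lymphoid-like cells in primary pancreas 2 (1.37%) and of myeloid-like cells in primary pancreas 1 (1.79%) were below both PPDO shares. TOP2A was the largest contributor in lymphoid-like cells of the first library with 185 CPM (322 UMIs) and in myeloid-like cells of the second with 116 CPM (113 UMIs). Acinar-like cells had the lowest sum of the classes with over 20 cells, 6.75 and 4.75 CPM.

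CDK1 was the highest of the 10 genes in endothelial-like, stellate-like and endocrine-like cells of both primary libraries, and also in acinar-like cells of the first and lymphoid-like cells of the second. In endocrine-like cells it was at 5.91 and 3.93 CPM, where CENPF was at 2.37 and 1.53 CPM. In endothelial-like cells it was at 14.4 and 37.3 CPM, where CENPF was at 6.31 and 0.342 CPM and TOP2A at 6.89 and 1.03 CPM, and in stellate-like cells it was at 14.8 and 18.4 CPM, where CENPF was at 1.35 and 0 and CCNB1 at 2.10 and 2.30 CPM. Among the named classes CDK1 exceeded both PPDO levels, 11.6 and 17.3 CPM, in lymphoid-like and myeloid-like cells of both libraries. Its values were 94.7 and 61.9 CPM in the former and 21.1 and 50.4 CPM in the latter. CDK1 also exceeded both in endothelial-like and stellate-like cells of the second library, in the latter on 8 UMIs. In these 2 classes of the first library it lay between the PPDO levels. It made up 25.5% of the UMIs of the 10 genes in primary pancreas 2, 13.5% in primary pancreas 1, and 8.13% and 8.0% in PPDO.

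Cells with a CDK1 UMI were examined for a UMI of another of the genes. At 3000 UMIs per cell, 108 of 220 PPDO 1 cells with CDK1 (49.1%) and 154 of 247 PPDO 2 cells (62.3%) had a second mitosis gene. In primary pancreas this held for 24 of 139 (17.3%) and 7 of 81 (8.64%), and in endothelial-like cells for 4 of 50 (8.0%) and 1 of 21 (4.76%). For the other 9 genes the values in primary pancreas ran from 24.2% (ASPM) to 57.9% (CCNB1) in the first library and from 25.0% (CDC20) to 57.9% (TOP2A) in the second, so CDK1 was the lowest of the 10 in both. In PPDO CDK1 was the lowest in PPDO 1, and in PPDO 2 it was next to BIRC5 at 62.0%. In ductal-like cells the libraries differed: in primary pancreas 1, 3 of 12 cells with CDK1 (25.0%) had another gene, above ASPM (15.8%), TPX2 and CDC20 (both 20%) and BIRC5 (23.5%), and in primary pancreas 2 it was 0 of 8, with TOP2A, UBE2C and BIRC5 also at 0. The share of cells with a CDK1 UMI, 2.49% and 3.37% in PPDO, overlapped with the 2.74% and 1.90% of primary pancreas 1 and 2, and it was 1.20% in acinar-like cells of primary pancreas 1, whose median depth was 7329 UMIs before thinning. Counting the other 9 genes without CDK1 left the share of cells with 3 or more the same in all 8 named primary classes and gave a mean share of 3.71% in PPDO, an alternative chosen after seeing the data.

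**Figure D5:**
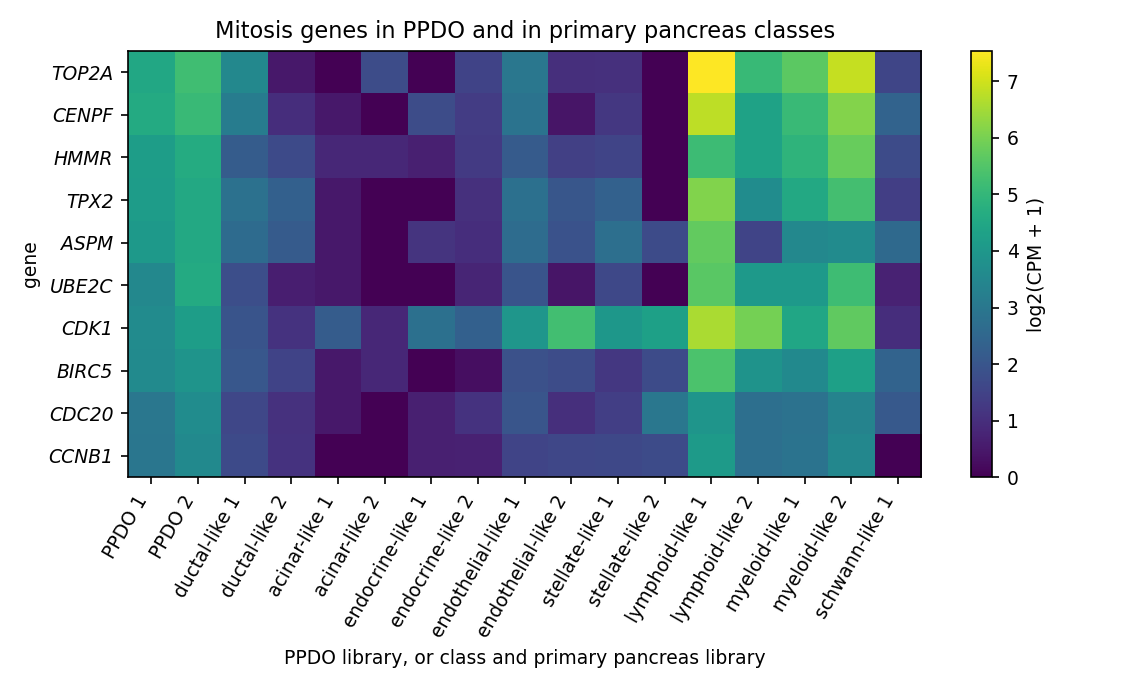
Level of each mitosis gene as log2(CPM + 1), by colour, in the 2 PPDO libraries and in each primary pancreas class and library with at least 20 cells. The lymphoid-like column of primary pancreas 1 holds the highest level, TOP2A at 185 CPM, and in the endothelial-like, stellate-like and endocrine-like columns of both libraries the CDK1 row stands above the other 9.

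The other genes of the same machinery were counted from lists of textbook members, of which the 10 genes above were left out. Not all list genes could be matched by symbol. With the 10 genes included, 12 of 14 cyclin and kinase, 21 of 23 spindle, 14 of 16 checkpoint and 17 of 18 centromere genes were matched. So were 11 of 13 chromosome structure, 29 of 30 replication and 17 of 18 G1 control genes. MKI67, CCNA2, AURKA, PTTG1, KNL1 and RRM2 were among those missed, so the counts do not cover the whole machinery. Against ductal-like cells, 4 of 10 further cyclin and kinase genes, 11 of 17 spindle genes, 8 of 12 anaphase promoting complex and checkpoint genes and 11 of 15 centromere genes were called higher in PPDO by edgeR, with median log2 fold changes of 1.55, 1.87, 1.30 and 1.93, where 22.8% of all genes tested were called higher and 20.9% lower. In these lists 1 gene was called lower, GMNN. Of the chromosome structure genes 1 of 10 was higher and 2 were lower, which is not above those shares of all genes, with a median of 0.38 that turned to -0.07 with library totals alone. The DNA replication list had 21 of 29 higher and none lower with a median of 1.12, and with library totals alone 14 were higher and 1 lower. Against all primary cells the counts called higher were 3 of 10, 8 of 17, 6 of 12, 4 of 15 and 13 of 29 for the cyclin and kinase, spindle, checkpoint, centromere and replication lists and 0 of 10 for the chromosome structure list, where 11.9% of all genes were called higher, and GMNN was called lower. With library totals alone these counts fell to 1, 0, 1, 0 and 4 higher, and 0 for chromosome structure.

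The 4 most abundant genes of each list were examined whatever their change. In the cyclin and kinase list CDC25B, the phosphatase that activates CDK1, was at 20.5 and 19.5 CPM in PPDO and at 8.28 and 6.56 in ductal-like cells and rose (1.86, edgeR adjusted p = 0.00552), while CKS2, LIN54 and WEE1 overlapped between the groups and did not pass. Among the spindle genes NUSAP1 was at 174 and 178 CPM in PPDO and 193 and 158 in ductal-like cells and did not pass, and neither did ECT2 (1.52, edgeR adjusted p = 0.0647). CKAP5 and KIF20B passed at 0.87 and 0.80 (edgeR adjusted p = 0.0120 and 0.0181), but not with library totals alone.

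Of the checkpoint genes GMNN, geminin, which blocks a new round of DNA licensing after S phase, fell by 4.03 on the log2 scale (edgeR adjusted p = 0.00144), from 358 and 283 CPM in ductal-like cells to 12.5 and 16.5 CPM in PPDO. Across PPDO cells its r with the summed mitosis genes was 0.22 and 0.33. CDC27 and ANAPC1, subunits of the anaphase promoting complex, were 0.69 and 0.93 higher (edgeR adjusted p = 0.0198 and 0.0101), though not with library totals alone, and for CDC27 the groups overlapped, with 73.5 and 77.6 CPM in PPDO and 54.7 and 74.4 CPM in ductal-like cells. BUB3 was not called either (0.45, edgeR adjusted p = 0.0659).

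At the centromere CENPE, a kinetochore motor, and SPC24, of the NDC80 complex, rose by 3.8 and 2.98 (edgeR adjusted p = 0.0164 and 0.00228). AURKB, the kinase that works in 1 complex with BIRC5, did not: it was at 7.89 and 8.79 CPM in PPDO and at 13.9 and 16.8 CPM in ductal-like cells (log2 fold change -0.42, edgeR adjusted p = 0.128), and with library totals alone it was called lower (-0.88, edgeR adjusted p = 0.0319). SGO2, which protects centromere cohesion, was also below in both PPDO libraries without passing (-0.16, edgeR adjusted p = 0.603). Of the chromosome genes HMGB2 rose by 1.77 (edgeR adjusted p = 0.00748) and TMPO, a nuclear envelope protein, fell by 1.19 (adjusted p = 0.00596), whereas the condensin genes SMC4 and SMC2 overlapped between the groups and were not called.

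In the replication list DUT, which keeps uracil out of DNA, was at 168 and 183 CPM in PPDO against 50.2 and 54.9 CPM, a rise of 2.19 (edgeR adjusted p = 0.00110), and RFC2 rose by 1.12 (adjusted p = 0.00716). PCNA rose by 0.80 (edgeR adjusted p = 0.0172), though not with library totals alone, and SLBP was not called (-0.13, adjusted p = 0.620). The list medians were 1.12 for the replication genes and 2.87 for the mitosis genes, and the difference between the lists was not tested.

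The G1 control list, which holds activators and inhibitors of the cell cycle, had 6 of 17 genes higher and 4 lower in PPDO, against 22.8% and 20.9% of all genes tested, so that the count of lower genes was near the share of all genes. CDKN1A (p21), an inhibitor of cyclin-dependent kinases, was at 208 and 213 CPM in PPDO and at 51.5 and 0.880 CPM in ductal-like cells, and with that spread it did not pass (3.34, edgeR adjusted p = 0.168). CCND1 and CDK6, which start the cycle, were not called either (1.06 and 0.43, edgeR adjusted p = 0.0582 and 0.0741), and RB1 was 0.62 higher (adjusted p = 0.0242), though not with library totals alone. Outside the 4 most abundant genes, and named after its values were seen, CDKN2B (p15), an inhibitor of CDK4 and CDK6, was at 37.0 and 40.1 CPM in PPDO on 21665 UMIs and had 1 UMI in all ductal-like cells. CDKN2C (p18), also named after its values were seen, was at 2.46 and 1.71 CPM in PPDO and 33.5 and 45 CPM in ductal-like cells (-3.77 on the log2 scale, edgeR adjusted p = 0.000974).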

How the data were processed

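Live cells of 4 pig libraries were profiled with the 10x Genomics 3′ assay. The deposited files hold unnormalised UMI counts for each annotated feature in each cell, which the authors made with Cell Ranger (7.1.0 in the matrix header) against a pig annotation with added 3′ extensions; the labels name Sscrofa11.1 and GRCh38. The study's later correction for free RNA is not in these counts. Features were summed per gene identifier. PPDO cells with over 3% mitochondrial UMIs or under 1000 features were removed, primary cells with over 8% or under 400 (primary pancreas 1) or 800 features (primary pancreas 2, which also needed 3000 UMIs), and all cells over 9000 features. Scrublet calls were removed in primary pancreas and kept in PPDO. Cells were clustered with scanpy 1.11.5 (2000 variable genes without the cell cycle genes matched by symbol, 20 components, Leiden resolution 0.5), and classes were named from markers.

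UMI sums per library were tested with edgeR 4.0.16 (quasi-likelihood test, TMM, Benjamini-Hochberg threshold 0.05) over all genes, with DESeq2 1.42.0 as an alternative, after both were tested on simulated data. The simulation changed few genes, in both directions and with the same dispersion for all. It cannot show how the tests behave when many genes change. Kept cells held 300990276 and 262372786 UMIs in PPDO and 75903282 and 118219798 in primary pancreas. For shares, each cell was thinned to 3000 UMIs. The mitosis genes and gene lists were chosen with earlier results of these data known. All 10 mitosis genes were named, and of each other list the 4 genes with the highest mean CPM. Alternatives changed the scaling, filters, libraries, thinning, number of genes required and clustering resolution. Each group had 2 pigs with 1 library each, so p-values rest on the spread between these libraries. The SE beside an edgeR fold change was derived from the test and not estimated by edgeR itself. It is the absolute log2 fold change divided by the square root of the test's F statistic.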

Additional observations from a re-analysis of the deposited data

How the results depend on the processing

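Of 445 alternatives, 372 were counted as the same. For a single gene this meant the same direction and side of the threshold. For a count of genes called it meant a value within a factor of 1.5, and for a share a move of less than the spread. In the 150 and 120 alternatives for single genes 0 reversed, while a count of genes called cannot reverse. Against ductal-like cells, leaving out 1 library gave 4 to 10 mitosis genes and 4774 to 10732 genes called by edgeR, against 8 and 10273. The 4 was without PPDO 2, which lost UBE2C, CCNB1, CDK1 and CDC20, and both primary pancreas libraries left out in turn gave 10; without PPDO 1 the calls over all genes fell to 5208. Against all primary cells (3 and 6349), leaving out 1 library gave 0 to 10 mitosis genes and 0 to 13014 genes. The 0 came without PPDO 1 or PPDO 2 (5138 and 4844 genes at an unadjusted p under 0.05), and without primary pancreas 1 and 2 there were 10 and 9. A group left with 1 library was assumed to vary like the other. DESeq2 gave 10 mitosis genes and 10198 genes, and library totals alone 0. Same-numbered libraries did not deviate together (r = -0.011 and -0.021), so they share only a number; with the replicate block 7 mitosis genes passed against ductal-like cells, with 8292 genes, and 0 against all primary cells (9 unadjusted), with 2603 genes. The causes were not tested.

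The mean share in PPDO, 3.92%, was 5.73% with 2 or more genes required, 2.80% with 4 or more, 5.01% at 5000 UMIs and 15.4% without thinning. With 2 or more genes, all primary cells were at 0.689%, endothelial-like cells at 0.719% and stellate-like cells at 0.215%. Without thinning, all primary cells were at 0.805%, ductal-like at 0.545%, endocrine-like at 0.295% and endothelial-like cells at 0.705%. Lymphoid-like cells, at a mean of 2.79%, were at 4.93% at 5000 UMIs. PPDO cluster 4, at 55.9%, was at 68.5% with 2 or more genes and 69.7% at 5000 UMIs. At resolution 0.3 the cluster led by TOP2A was a larger set of 1332 cells, with 43.8%. With 10 or fewer such cells per primary class and library, counting error limits every class share.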
